A study of Mus musculus with 42 samples.

Results

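The 42 collagen chain genes measured on the array were followed through embryonic hippocampus and cortex of Fmr1 knockout (KO) and wild-type (WT) mice, as tissue and as cultured cells. They were all genes whose array symbol has the form of a collagen chain name (Col, a type number, a, a chain number), 42 of the 18193 genes that a probe set names alone. Each gene was represented by its probe set with the highest mean over all arrays. Of 42 members, 32 lay above the background level of 5.16 log2 in at least 1 group, and of all genes 69.4% were above background. KO and WT differed by an unadjusted p under 0.05 for 7 members in each culture, 2 in hippocampal tissue and 0 in cortical tissue. Over all genes, too, calls were more numerous in the cultures (9.54% and 10.2%) than in tissue (1.54% and 1.66%). Of the basement membrane collagen type IV, the chains Col4a1 and Col4a2 were lower in KO than in WT hippocampal cultures, and Col4a4, Col4a5 and Col4a6 were higher in KO than in WT cortical cultures, none of them past the test once adjusted over all genes.

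Total RNA was hybridised to 42 one-colour Affymetrix mouse arrays in 8 groups. These were KO and WT hippocampal cultures (5 arrays each), KO and WT cortical cultures (5 each), KO and WT primary hippocampus (6 each) and KO and WT primary cortex (5 each). All came from C57BL/6 embryos of 17 to 18 days post-conception, the KO ones lacking Fmr1 in every cell from conception, and the cultures were kept for 14 days in vitro. Every sample is labelled untreated. Each array held pooled littermates and carries a mouse identifier, read here as the litter. Of 12 litters, 10 were used in all 4 systems (KO 2037, 2038, 2221, 2620 and 4236, WT 2236, 2643, 2644, 3569 and NT), whereas primary hippocampus had 1 more litter of each genotype (KO 4237, WT 3104). KO and WT embryos never shared a litter, and the labels do not say which KO and WT litters were processed on the same day. Values for single arrays are given below in the order of the litters named here.

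Collagens are secreted or membrane-bound proteins of 3 chains wound into a triple helix, and a collagen type is named for the chains that assemble together. Fibrillar collagens such as types I, II, III, V and XI form the fibrils of connective tissue and cartilage, and fibril-associated types such as IX and XII bind to their surface. Type IV forms the mesh of basement membranes, which in the brain line the meninges and sheathe every vessel, and type XVIII joins it there as a proteoglycan whose cleavage releases endostatin. Type VI forms beaded filaments, type VIII the short-chain lattices found beneath endothelia, and types XIII, XVII, XXIII and XXV span the cell membrane. In brain most collagen transcripts are made by meningeal fibroblasts, pericytes and endothelial cells, with some transmembrane and fibril-associated chains made by neurons.

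Fmr1 itself was lower in KO than in WT arrays in each system, by between 0.90 log2 (cortical culture) and 0.99 (primary cortex) (adjusted p of 2.6e-06 or less, limma), without overlap between genotypes. Array medians lay between 5.40 and 5.56 log2. All 12 neuronal markers were above background in the cultures. Of 12 microglial markers, 10 or 11 were at background in the cultures (2 or 1 above it), and 10 of 15 endothelial markers were at background there, among them Cldn5, Pecam1 and Cdh5. Of 18 meningeal and fibroblast markers, 8 or 9 were above background in the cultures, while Lum, Foxc2, Foxd1, Crabp2, Aldh1a2, Twist1, Tbx18, Slc13a4 and Slc6a13 were not.

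More collagen chains were measurable in culture than in tissue, with 28 members above background in the hippocampal cultures and 27 in the cortical ones, against 26 in hippocampus and 23 in cortex as tissue. These counts by system have no share over all genes beside them, so the excess is not shown to be particular to collagens. All classes were represented: 9 of 11 fibrillar chains, 5 of 6 type IV chains, 3 of 5 type VI chains, 3 of 4 short-chain and anchoring collagens, 7 of 9 fibril-associated chains, 3 of 4 transmembrane collagens, Col18a1 of the 2 multiplexins, and Col26a1. The 10 members at background in every group were Col4a3, Col6a4, Col6a5, Col9a2, Col10a1, Col11a2, Col14a1, Col15a1, Col17a1 and Col24a1, and a difference between groups of such a gene carries no level.

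Single cultures stood apart in many collagen chains at once. The WT hippocampal culture of litter 2644 was the highest of its 5 arrays in 18 of 27 members above background, and the KO hippocampal culture of litter 4236 was the lowest of its 5 in 16 of 26. In cortical culture, KO litter 4236 was lowest in 13 of 27 and WT litter 2236 highest in 10 of 25. The median SD of a member within a group was 0.242 log2 in KO hippocampal cultures, against 0.408 in WT ones, and 0.336 in KO and 0.348 in WT cortical cultures, against 0.167 to 0.230 in the 4 tissue groups.

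The same cultures stood apart in markers of several cell types. Over 12 pericyte and smooth muscle genes, the log2 of the summed signal was 10.16 in KO hippocampal culture 4236. The other KO ones had 10.87 to 11.55. It was 13.02 in WT 2644, above 10.50 to 11.66 in the other WT ones. In cortical culture it was 10.51 in KO 4236 beside 11.89 to 12.50 in the other KO ones, and 12.99 in WT 2236 beside 10.72 to 11.57 in the other WT ones. The meningeal and fibroblast sum was 12.10 in KO hippocampal culture 4236 and 14.39 in WT hippocampal culture 2644, the lowest and the highest of their groups. Markers of dividing progenitors moved with them: over 9 genes the log2 sum was 11.62 in KO hippocampal culture 4236 beside 12.50 to 12.64 in the other KO ones, and 13.70 in WT 2644 beside 12.10 to 12.67. In cortical culture it was 12.60 in KO 4236 beside 13.21 to 13.54, and 13.73 in WT 2236 beside 12.50 to 13.02. The sum of 12 neuronal markers was lowest of its group in the WT cultures at 14.80 in hippocampal 2644, beside 15.21 to 15.37, and at 14.68 in cortical 2236, beside 14.89 to 15.25. Over 15 endothelial genes the log2 sum was 9.93 in KO hippocampal culture 4236 beside 10.41 to 10.90. It was 11.26 in WT 2644 beside 10.36 to 10.905. In cortical culture it was 10.18 in KO 4236 beside 10.64 to 11.43, and 11.40 in WT 2236 beside 9.99 to 10.6. The astrocyte sum was lowest of its group in both KO 4236 cultures (13.705 and 13.41). It was highest in WT hippocampal 2644 (14.03) and WT cortical 2236 (13.74). The microglial sum did not move this way. The part of these cells in the collagen values was not tested, and each result below that changes without one of these litters is given with its value without it. In such bulk RNA, fewer cells of a type and less RNA per cell cannot be told apart.

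The type IV chains lie in head-to-head gene pairs, and their promoters are shown because partner chains from one pair are compared below. The windows run from 250 bases before to 50 after the start, from RefSeq on GRCm38.p6, each on the strand of its own gene and 5′ to 3′. Capitals mark the CCAAT box (CCAAT, or ATTGG on the other strand), the GC box (GGGCGG, or CCGCCC on the other strand) and the TATA box (TATAAA, or TTTATA on the other strand). These are matches of letters at any place in the window, and their use in transcription was not tested.
Col4a1: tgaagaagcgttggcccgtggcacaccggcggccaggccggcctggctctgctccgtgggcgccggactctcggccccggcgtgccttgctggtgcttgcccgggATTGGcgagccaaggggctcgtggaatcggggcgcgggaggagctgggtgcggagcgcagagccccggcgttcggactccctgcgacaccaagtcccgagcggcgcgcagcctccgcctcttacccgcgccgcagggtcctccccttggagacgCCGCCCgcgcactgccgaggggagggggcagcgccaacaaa
Col4a2: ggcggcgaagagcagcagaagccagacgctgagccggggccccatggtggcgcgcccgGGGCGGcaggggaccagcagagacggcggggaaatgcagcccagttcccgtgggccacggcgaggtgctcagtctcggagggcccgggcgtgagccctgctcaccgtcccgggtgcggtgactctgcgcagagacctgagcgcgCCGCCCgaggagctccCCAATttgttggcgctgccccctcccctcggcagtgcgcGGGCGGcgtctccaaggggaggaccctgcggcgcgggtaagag
Col4a5: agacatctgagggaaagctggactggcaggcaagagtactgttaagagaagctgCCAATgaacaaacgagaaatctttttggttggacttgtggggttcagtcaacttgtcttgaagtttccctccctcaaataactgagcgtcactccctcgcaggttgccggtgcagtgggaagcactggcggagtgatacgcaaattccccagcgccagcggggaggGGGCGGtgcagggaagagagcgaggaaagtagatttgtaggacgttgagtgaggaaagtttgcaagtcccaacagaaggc
Col4a6: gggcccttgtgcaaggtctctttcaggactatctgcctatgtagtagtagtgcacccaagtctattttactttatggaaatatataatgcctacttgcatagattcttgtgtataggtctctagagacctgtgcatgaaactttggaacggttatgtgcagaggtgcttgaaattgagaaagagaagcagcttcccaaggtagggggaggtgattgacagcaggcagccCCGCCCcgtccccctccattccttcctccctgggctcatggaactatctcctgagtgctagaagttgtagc

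The Col4a1 window (chr8:11312777-11313076, minus strand) and the Col4a2 window (chr8:11312555-11312854, plus strand) share 78 bases, so the chains of the common type IV heterotrimer are transcribed away from one start region. The windows of Col4a5 (chrX:141475169-141475468, plus strand) and Col4a6 (chrX:141474027-141474326, minus strand) are 842 bases apart. A CCAAT box occurred once in each of the Col4a1, Col4a2 and Col4a5 windows and not in that of Col4a6. GC boxes occurred once in Col4a1, Col4a5 and Col4a6 and 3 times in Col4a2. That of Col4a1 lies in the bases shared with the Col4a2 window and is counted in both. RefSeq windows matched 33 of the 42 members, in 36 windows, of which 13 held a CCAAT box, 22 a GC box and 5 a TATA box. Among all 32851 windows the shares were 37.4% for the CCAAT box, 35.7% for the GC box and 13.6% for the TATA box.

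In hippocampal culture, Col4a1 and Col4a2, the chains of the type IV network found in nearly all basement membranes, were lower in KO than in WT. Col4a2 stood at 8.34, 7.93, 8.14, 8.30 and 7.85 log2 in KO cultures, against 8.07, 8.65, 9.18, 8.61 and 8.85 in WT cultures. All KO values lay under the 4 highest WT values, and WT litter 2236 was within the KO range. The mean was 8.11 ± 0.21 in KO and 8.67 ± 0.41 in WT (SD), a difference of -0.56 ± 0.13 (SE; p = 9.6e-05 unadjusted and adjusted p = 0.203 by limma, p = 0.0317 by an exact two-sided permutation test of these 10 arrays, for which the smallest possible value is 0.00794). This difference kept its call without any 1 litter, lying between -0.71 without 2236 and -0.43 without 2644.

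Col4a1 stood at 9.81, 9.36, 9.38, 9.63 and 9.22 in KO hippocampal cultures, against 9.38, 9.89, 10.81, 9.69 and 10.16 in WT ones. The groups overlapped, with WT litter 2236 at the KO level. The difference was -0.51 ± 0.17 (p = 0.0053 unadjusted and adjusted p = 0.361 by limma, exact permutation p = 0.0714), and without WT litter 2644 it was -0.30 and no longer called. A second probe set of Col4a1 gave the same difference of -0.51, also called.

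The other type IV chains had negative differences in hippocampal culture that did not pass the test. Col4a5 and Col4a6, the chains of a more restricted type IV network found for example under epithelia and smooth muscle, averaged 8.79 ± 0.76 and 5.75 ± 0.29 in KO against 9.37 ± 0.77 and 6.01 ± 0.31 in WT (exact permutation p = 0.286 and 0.198). All 5 type IV members above background had negative differences, between -0.58 and -0.26, as had 32 of the 42 members, whose median was -0.11 against 0.01 over all genes. Col18a1, the basement membrane proteoglycan collagen, was lower in KO at 8.78, 8.38, 8.59, 8.80 and 7.35, against 8.24, 9.42, 10.08, 8.21 and 9.35 in WT, with overlapping groups. Its difference of -0.68 ± 0.28 (p = 0.022 unadjusted and adjusted p = 0.477 by limma, exact permutation p = 0.159) was no longer called without litter 2643 (-0.59), 2644 (-0.42), 4236 (-0.42) or NT (-0.61).

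In cortical culture, 3 type IV chains were higher in KO than in WT. Col4a5 stood at 9.51, 9.73, 9.09, 9.59 and 7.88 in KO cultures, against 9.85, 8.16, 8.03, 8.32 and 7.32 in WT ones. WT litter 2236 was the highest of all 10 and KO litter 4236 lay inside the WT range, while the other 4 KO values lay above the other 4 WT values. The difference was 0.82 ± 0.35 (p = 0.024 unadjusted and adjusted p = 0.459 by limma, exact permutation p = 0.175). It was 1.20 without WT 2236, and its call was lost without litter 2037 (0.74), 2038 (0.68), 2620 (0.71), 2643 (0.78) or NT (0.57).

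Col4a6, encoded beside it, stood at 5.84, 5.82, 5.36, 5.43 and 5.04 in KO cortical cultures, against 5.28, 5.13, 4.84, 5.45 and 5.04 in WT ones, a difference of 0.35 ± 0.14 (p = 0.018 unadjusted by limma, exact permutation p = 0.119). Col4a4, a chain of the network known from kidney glomeruli, stood at 6.03, 6.24, 5.62, 5.29 and 4.92 in KO, against 5.43, 4.77, 4.95, 5.18 and 4.59 in WT, a difference of 0.64 ± 0.27 (p = 0.025 unadjusted by limma, exact permutation p = 0.0635). Groups overlapped for both genes. Their WT means lay at background, which leaves differences of at least 0.34 and 0.46 above it. Col4a6 was lost without litter 2037 (0.27), 2038 (0.27) or 2644 (0.28), and Col4a4 without 2037 (0.54), 2038 (0.48), 2643 (0.58) or NT (0.54).

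Col4a1 and Col4a2 did not pass the test in cortical culture. Col4a1 stood at 9.66, 9.31, 9.37, 9.46 and 9.42 in KO, against 9.30, 8.72, 8.85, 9.56 and 9.28 in WT, a difference of 0.31 (p = 0.082 unadjusted by limma, exact permutation p = 0.127). Col4a2 averaged 8.23 ± 0.08 in KO and 8.13 ± 0.18 in WT (SD), with overlapping groups. All 5 type IV members above background had positive differences here, between 0.09 and 0.82, against 21 of the 42 members. In tissue no type IV chain and not Col18a1 was called, with KO minus WT between -0.14 and 0.03 in primary hippocampus and between -0.08 and 0.11 in primary cortex for those above background.

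**Figure D1:**
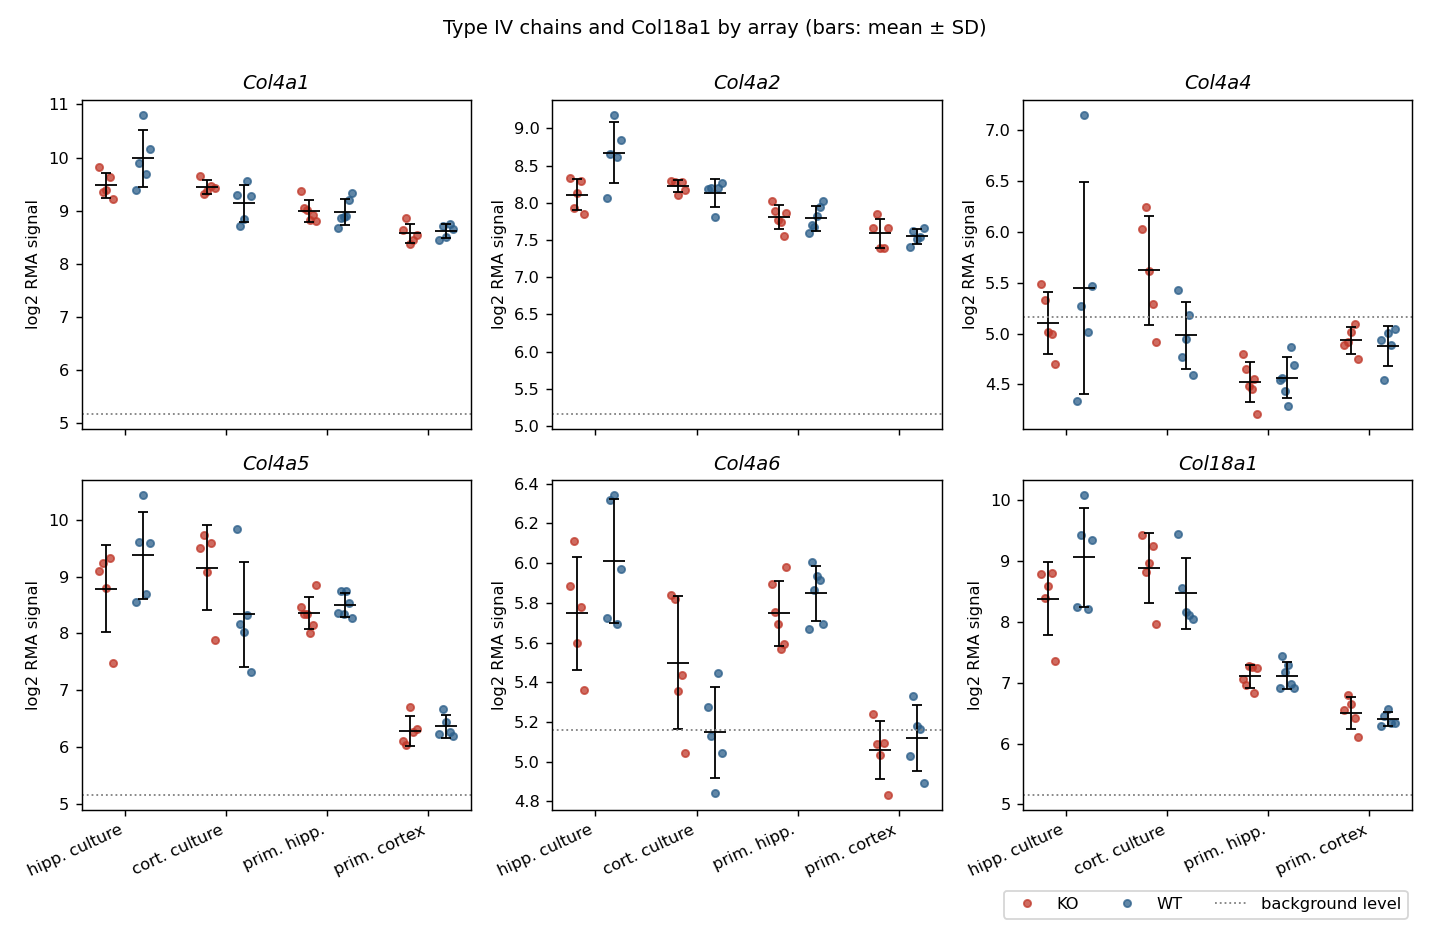
Log2 signal of 5 type IV chains and Col18a1 on each of the 42 arrays, KO (red) left of WT (blue) in each system, with the mean ± SD and the background level of 5.16 log2 as a dotted line. KO points lie mostly under WT points for Col4a1 and Col4a2 in hippocampal culture, KO points lie mostly above WT points for Col4a4, Col4a5 and Col4a6 in cortical culture, and the tissue groups overlap.

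The KO effect was then compared directly between the cultures, as KO minus WT in hippocampal culture less the same in cortical culture. Of 42 members 11 passed an unadjusted p of 0.05, against 4.55% of all genes. Of these, 9 had a more negative KO effect in hippocampal culture, against 2.54% of all genes, and 5 of the 9 were type IV chains. The differences were -0.81 ± 0.24 (SE) for Col4a1, -0.65 ± 0.18 for Col4a2, -1.41 ± 0.50 for Col4a5, -0.61 ± 0.20 for Col4a6 and -0.98 ± 0.39 for Col4a4. Col4a6 was at background in WT cortical culture, and Col4a4 there and in KO hippocampal culture, so that the sizes of these 2 differences are not known. None passed after adjustment over all genes (adjusted p = 0.984 for each, limma), and none of the 18193 genes did. The 2 members with a more positive effect, Col14a1 and Col24a1, were at background.

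The other chains called in that comparison were Col18a1 (-1.10 ± 0.40), Col11a1 (-1.26 ± 0.48), Col5a2 (-1.29 ± 0.62) and Col8a2 (-1.43 ± 0.64). Col11a1 and Col5a2 are minor fibrillar chains that regulate fibril growth, and Col8a2 is a short chain of type VIII. KO minus WT was -0.73 in hippocampal and 0.56 in cortical culture for Col5a2 and -0.86 and 0.57 for Col8a2, with overlapping groups in each culture and none of the 4 values past the test. Col5a2 stood at 8.93, 8.95, 8.91, 8.70 and 7.38 in KO hippocampal cultures, against 8.07, 9.44, 11.14, 8.28 and 9.59 in WT ones. In cortical culture it stood at 9.92, 9.74, 10.04, 10.27 and 8.03 in KO, against 10.99, 9.38, 8.67, 8.35 and 7.83 in WT.

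Leaving out 1 litter at a time did not end the calls of Col4a1, Col4a2, Col4a5 and Col4a6, although Col4a1 was -0.53 without 2644. Without WT litter 2644, Col4a4 (-0.55), Col11a1 (-0.88), Col18a1 (-0.76), Col5a2 (-0.74) and Col8a2 (-0.98) no longer passed. Col5a2 was also lost without 2037, 2038, 2221, 2620, 2643 or NT, and Col8a2 without 2037, 2221, 2643 or NT, while without WT 2236 they were -2.08 and -2.22. With litters 2236, 2644 and 4236 left out together, a choice made after seeing the data, all 9 still passed, with Col4a1 at -0.63, Col4a2 at -0.54, Col4a5 at -1.72, Col4a6 at -0.56 and Col4a4 at -0.99. Both cultures of a litter entered this comparison, and with the litter as a fixed block, also added after seeing the data, Col4a4, Col5a2 and Col8a2 were lost.

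**Figure D2:**
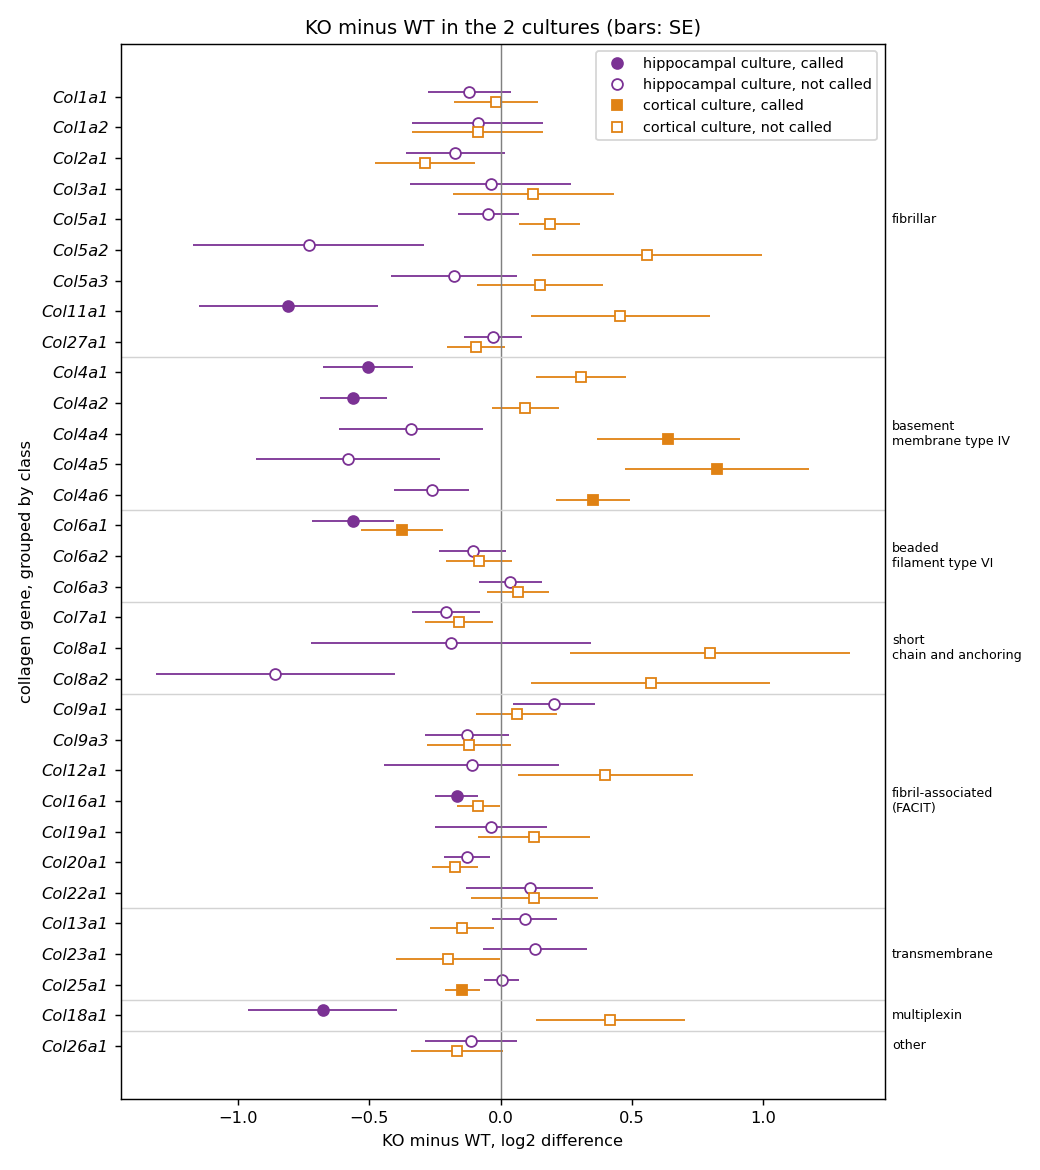
KO minus WT log2 difference ± SE of the 32 members above background, by class, in hippocampal culture (purple circles) and cortical culture (orange squares), with filled symbols for an unadjusted p under 0.05. Type IV chains lie left of 0 in hippocampal culture and right of 0 in cortical culture, and Col6a1 lies left of 0 in both.

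In hippocampal culture 7 of 42 members were called KO against WT, against 9.54% of all genes. The 6 that were lower in KO and above background were Col4a1, Col4a2, Col18a1, Col11a1, Col6a1 and Col16a1, against 2.67% of all genes called lower, and Col15a1, called higher, was at background. Col6a1, a chain of the type VI beaded filament, stood at 5.79, 5.64, 5.73, 5.82 and 6.14 in KO cultures, against 5.92, 6.22, 6.91, 6.84 and 6.03 in WT ones. Only KO litter 4236 reached into the WT range, and the difference of -0.56 ± 0.16 (p = 0.00092 unadjusted and adjusted p = 0.286 by limma, exact permutation p = 0.0317) held without any 1 litter (-0.68 to -0.43).

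Col11a1 stood at 7.75, 7.77, 7.90, 8.20 and 6.51 in KO hippocampal cultures, against 7.68, 8.45, 9.89, 7.77 and 8.39 in WT ones, with overlap. Its difference of -0.81 ± 0.34 (p = 0.023 unadjusted by limma, exact permutation p = 0.127) was lost without WT 2644 (-0.45) or KO 4236 (-0.53). Col16a1, a fibril-associated chain, stood at 6.81, 6.71, 6.76, 6.56 and 6.63 in KO, against 6.56, 6.75, 7.14, 7.03 and 6.84 in WT, with overlap. This was the smallest of the 6 differences (-0.17 ± 0.08, p = 0.047 unadjusted by limma, exact permutation p = 0.175), and it was lost without litter 2038, 2620, 2644, 3569, 4236 or NT (-0.10 to -0.17). Fitted on the hippocampal cultures alone, Col4a2, Col6a1 and Col4a1 passed and the other 3 did not.

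In cortical culture 7 members were also called, against 10.2% of all genes, 3 higher in KO (6.17% of all genes) and 4 lower (4.05%). Beside the 3 type IV chains, Col6a1 and Col25a1 were called lower, and Col14a1 and Col24a1 were called lower at background. Col6a1 stood at 6.03, 6.05, 6.26, 6.75 and 6.44 in KO cultures, against 6.85, 6.81, 6.74, 6.52 and 6.49 in WT ones, a difference of -0.38 ± 0.16 (p = 0.021 unadjusted and adjusted p = 0.442 by limma, exact permutation p = 0.0397). It was lost without litter 2037 (-0.31), 2038 (-0.31) or 2643 (-0.34). The groups overlapped, and Col6a1 was called lower in KO in both cultures. Its filament partners Col6a2 and Col6a3 were not called in either.

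Col25a1, a transmembrane collagen of neurons whose shed ectodomain is found in amyloid plaques, stood at 6.82, 6.87, 6.76, 6.81 and 6.98 in KO cortical cultures, against 7.02, 6.93, 6.92, 7.01 and 7.08 in WT ones, with overlap. The difference was -0.15 ± 0.07 (p = 0.036 unadjusted by limma, exact permutation p = 0.0238), and it was lost without litter 2037, 2221, 2236, 2620, 3569 or NT (-0.12 to -0.14). A second probe set of the gene gave -0.09 in cortical culture, not called, and 0.59 in hippocampal culture, called, so the probe sets of Col25a1 disagreed.

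Marker lists gave few calls between genotypes in the cultures, where 9.54% of all genes were called in hippocampal and 10.2% in cortical culture. With short lists and many genes at background, few calls do not show that the cell make-up was alike. In hippocampal culture 1 of 18 meningeal and fibroblast markers (Bgn), 1 of 15 endothelial markers (Slc2a1) and 0 of 12 pericyte and smooth muscle markers were lower in KO, by an unadjusted p under 0.05 in limma. In cortical culture 1 of the 18 (Pdgfrb) was higher in KO and 1 of the 12 was lower, at background. The summed signal was nevertheless uneven: over the 18 meningeal and fibroblast genes it ran between 4375 and 12589 in KO and between 8002 and 21431 in WT hippocampal cultures, and between 5304 and 13986 in KO and 4701 and 14493 in WT cortical cultures. Over the 12 pericyte and smooth muscle genes it ran between 1146 and 2989 in KO and between 1450 and 8288 in WT hippocampal cultures, and between 1456 and 5781 in KO and 1685 and 8130 in WT cortical cultures. Of these 12, Kcnj8, Abcc9, Myh11, Cnn1, Anpep and Higd1b were at background in all cultures. Of 9 dividing progenitor markers none was called in hippocampal culture, with a median of -0.21 and 1 positive, and Mcm7 was called higher in KO cortical culture, with a median of 0.32 and 7 positive. The KO effect of the 9 differed between hippocampal and cortical culture with a median of -0.53 and 1 positive, and that of Mcm7 was called lower. In that comparison 2.54% of all genes were called lower. Their sum ran between 3152 and 6371 in KO and between 4400 and 13332 in WT hippocampal cultures, and between 6196 and 11945 in KO and 5771 and 13602 in WT cortical cultures, with Eomes and Hes5 at background. Of 12 neuronal markers Tubb3 and Stmn2 were called higher in KO hippocampal culture and none was called in cortical culture. Of 11 oligodendrocyte lineage markers, Cnp and Pdgfra were called higher in KO cortical culture, and 1 at background was called lower in hippocampal culture. Of 12 microglial markers 2 were called lower in KO cortical culture, Csf1r among them, and 0 in hippocampal culture. The part of these cells in the collagen differences was not tested.

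Genes that fold, cleave, crosslink and bind collagen were read the same way, and called at an unadjusted p under 0.05 (limma), for which the shares of all genes were 9.54% in hippocampal and 10.2% in cortical culture. Of 22 folding and secretion genes, 2 were lower in KO hippocampal cultures, the lysyl hydroxylase Plod3 (-0.30) and the prolyl hydroxylase subunit P4ha1 (-0.46). In KO cortical cultures 2 were higher, the prolyl 3-hydroxylase P3h2 (0.83), known to act on type IV collagen, and P4ha3 (0.55), and 21 of the 22 had positive differences. In each culture these 2 of 22 are about the share found over all genes. The medians were -0.18 in hippocampal and 0.12 in cortical culture. Of the 22, 5 had a more negative KO effect in hippocampal than in cortical culture, against 2.54% of all genes in that comparison. Among the 5 were P3h2 (-1.05), P4ha1 (-0.67) and Plod3 (-0.41).

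Of 14 propeptide removal and crosslinking genes, 4 were lower in KO hippocampal cultures, including the matricellular Sparcl1 (-0.46), the procollagen proteinase Bmp1 (-0.25) and its enhancer Pcolce (-0.75). In KO cortical cultures 2 of the 14 were called, the propeptide-cleaving Furin higher (0.25) and 1 at background lower, and 12 of 14 had positive differences. Of 11 collagen receptors, the tyrosine kinase Ddr2 was lower in KO hippocampal cultures (-0.30), and 0 of the 11 were called in cortical culture. Of 18 other basement membrane genes, the laminin chain Lama5 was lower there (-0.52), and in KO cortical cultures the laminin chain Lamb2 was higher (0.57) and the perlecan gene Hspg2 lower (-0.20). Between the cultures the KO effect of 3 of the 18 was more negative in hippocampal culture, against 2.54% of all genes: Lamb2 (-0.99), Lamc1 (-0.76) and Lama5 (-0.60).

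In tissue only primary hippocampus gave calls. There 2 of 42 members were lower in KO, against 1.54% of all genes called and 0.945% called lower. Col3a1, the fibrillar chain of vessel walls and soft tissue, had its lowest, median and highest values at 6.01, 6.28 and 7.52 in KO hippocampi, against 6.31, 7.42 and 9.001 in WT ones. These groups overlapped, with the highest KO value in litter 2037 and the highest WT value in litter 3569. The difference was -1.13 ± 0.28 (p = 0.00024 unadjusted and adjusted p = 0.841 by limma, exact permutation p = 0.039). It kept its call without any 1 litter, between -1.39 without 2644 and -0.85 without 3569. A second probe set, at background, gave -0.39, also called.

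Col6a2, a type VI chain, had its lowest, median and highest values at 5.45, 5.63 and 5.87 in KO hippocampi, against 5.63, 5.89 and 6.52 in WT ones. Its difference of -0.35 ± 0.11 (p = 0.0043 unadjusted by limma, exact permutation p = 0.0519) lay between -0.42 and -0.25 without 1 litter. A second probe set gave -0.01, not called. In primary cortex 0 of 42 members were called at an unadjusted p under 0.05 in limma, against 1.66% of all genes. Col3a1 averaged 5.32 ± 0.24 in KO and 5.05 ± 0.46 in WT cortex (SD), and its KO effect differed between primary hippocampus and primary cortex by -1.40 ± 0.41 (called), a size that is uncertain because WT cortex was at background. That of Col6a2 differed by -0.39 ± 0.17 (called), lost without litter 2038, 2620, 2643, 3569 or NT (-0.28 to -0.38). These were 2 of 42 members, against 1.46% of all genes.

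Some markers of the choroid plexus epithelium, which adjoins the embryonic hippocampus, were also lower in KO hippocampi. Of 10 such genes, 4 were called lower there, against 0.945% of all genes, with Clic6 and Sostdc1 above background. Their summed signal ran between 1819 and 8525 in KO and between 3124 and 14663 in WT hippocampi, while Kl, Kcne2, Slc4a5, Aqp1 and F5 were at background in both. Of 18 meningeal and fibroblast markers 4 were lower in KO, Ptgds above background, and their sum ran between 4298 and 5542 in KO and between 4160 and 5875 in WT. A relation of these markers to Col3a1 or Col6a2 from array to array was not tested. Nor was the part of these cells in the lower Col3a1 and Col6a2.

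The KO effects in culture and tissue were also set against each other. In hippocampus, 3 members differed (4.58% of all genes): Col4a2 by -0.57, Col4a1 by -0.54 and Col3a1 by 1.10, the last of which was at background in culture in both genotypes. Col4a1 was lost without litter 2038, 2221, 2644 (-0.31) or 4236. In cortex, 4 members differed (4.64% of all genes), among them the fibril-associated Col20a1 by -0.30 and Col4a6 by 0.41, which was above background only in KO cortical culture. Col20a1 stood at 5.71, 5.60, 5.74, 5.64 and 5.84 in KO cortical cultures, against 5.82, 5.83, 5.76, 5.82 and 6.16 in WT ones, and its difference was lost without NT (-0.21). Leaving out any of 7 litters ended the call of Col4a6 (0.32 to 0.44).

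Culture minus tissue differences ran in opposite directions for different chains. The cultures were kept for 14 days in vitro and the tissue was not, so culturing and added time cannot be told apart here. In hippocampus 30 of 42 members differed by an adjusted p under 0.05, 21 higher and 9 lower in culture, against 72.1% of all genes, so the share itself did not set the collagens apart. At least 2-fold, 8 did (4 higher and 4 lower), against 19.4% of all genes. In cortex 37 differed, 30 higher and 7 lower, against 71.2%, and at least 2-fold 15 did (12 higher and 3 lower), against 18.1%. The median over the members was 0.18 in hippocampus and 0.36 in cortex, against 0.02 and 0.01 over all genes.

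Both type VIII chains were higher in culture in both regions. Col8a2 had its lowest, median and highest values at 6.26, 7.82 and 9.89 in hippocampal cultures against 4.52, 4.80 and 5.85 in hippocampi, and at 5.49, 7.06 and 8.31 in cortical cultures against 3.49, 3.62 and 4.59 in cortices. Every culture lay above every tissue array of its region, but overlap was not counted over all genes. The tissue means were at background, which makes the differences at least 2.67 log2 in hippocampus (adjusted p = 1.1e-10, limma) and at least 1.93 in cortex (adjusted p = 6.3e-12, limma). For Col8a1 they were at least 1.43 and 2.63.

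Basement membrane chains were higher in culture as well. Col18a1 had its lowest, median and highest values at 7.35, 8.68 and 10.08 in hippocampal cultures against 6.83, 7.11 and 7.43 in hippocampi (1.61 ± 0.19, adjusted p = 1.6e-09, limma), and at 7.96, 8.69 and 9.45 in cortical cultures against 6.11, 6.43 and 6.80 in cortices (2.22 ± 0.20, adjusted p = 1.4e-12, limma). It overlapped only between the lowest hippocampal culture and the highest hippocampus. Col4a1 was higher by 0.75 in hippocampal and 0.70 in cortical culture and Col4a2 by 0.59 and 0.61. Col4a5 was higher by 2.42 ± 0.25 in cortical culture and by 0.65 ± 0.24 in hippocampal culture, where it was lost without litter 2620 (0.55) or 2644 (0.50). Col6a1, at background in tissue, was higher in culture by at least 0.95 in hippocampus and at least 1.33 in cortex, with no overlap between culture and tissue. Such overlap was not counted over all genes. Col5a2 was higher in cortical culture (2.30 ± 0.31, adjusted p = 2.8e-08, limma), and Col19a1 (0.85) and Col5a3 (at least 0.33) were among the 6 largest increases in hippocampal culture.

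The fibrillar chains Col1a2, Col2a1 and Col3a1 were lower in culture than in tissue. Of the 11 fibrillar chains, 3 were higher and 4 lower in hippocampal culture and 7 higher and 3 lower in cortical culture. Col1a1, the other type I chain, averaged 5.11 in hippocampal cultures against 5.20 in hippocampi and 4.98 in cortical cultures against 4.67 in cortices, at or near background throughout. Col2a1, the chain of cartilage fibrils, had its lowest, median and highest values at 4.66, 4.97 and 5.54 in hippocampal cultures, against 7.25, 7.93 and 8.59 in hippocampi. Col3a1 had 3.92, 4.16 and 4.58 in hippocampal cultures against 6.01, 6.69 and 9.001 in hippocampi, and Col1a2, a chain of type I, 4.46, 4.73 and 5.01 against 6.16, 7.38 and 8.34. None of the 3 overlapped between culture and tissue, though overlap was not counted over all genes. As the culture means were at background, the differences were at least 2.75, 1.85 and 2.18 log2. In cortex, where tissue itself was near background, they were at least 0.41, 0.02 and 0.29.

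Col6a3 and the type IX chains Col9a1 and Col9a3 were lower in culture too, by -1.23, -0.94 and -0.75 in hippocampus and by -0.26, -0.39 and -1.07 in cortex. The promoter windows of Col1a2 and Col3a1 are shown for the fibrillar chains that were lower in culture in both regions, with the same motifs in capitals. That of Col1a2 (chr6:4505368-4505667, plus strand) held 2 CCAAT and 2 GC boxes. That of Col3a1 (chr1:45311288-45311587, plus strand) held 1 TATA box, by its letters alone, and neither of the others.
Col1a2: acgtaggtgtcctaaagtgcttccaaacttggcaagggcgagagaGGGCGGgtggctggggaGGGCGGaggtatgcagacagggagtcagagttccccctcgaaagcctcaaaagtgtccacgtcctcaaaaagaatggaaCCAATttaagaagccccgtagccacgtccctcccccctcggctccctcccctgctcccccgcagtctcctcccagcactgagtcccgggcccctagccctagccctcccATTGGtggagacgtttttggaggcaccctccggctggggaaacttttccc
Col3a1: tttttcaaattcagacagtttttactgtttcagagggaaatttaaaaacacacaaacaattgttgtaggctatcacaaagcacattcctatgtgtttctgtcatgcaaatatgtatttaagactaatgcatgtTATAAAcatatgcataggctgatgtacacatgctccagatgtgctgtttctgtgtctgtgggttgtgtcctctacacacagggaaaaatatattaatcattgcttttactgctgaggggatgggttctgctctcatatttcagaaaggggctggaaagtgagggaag

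**Figure D3:**
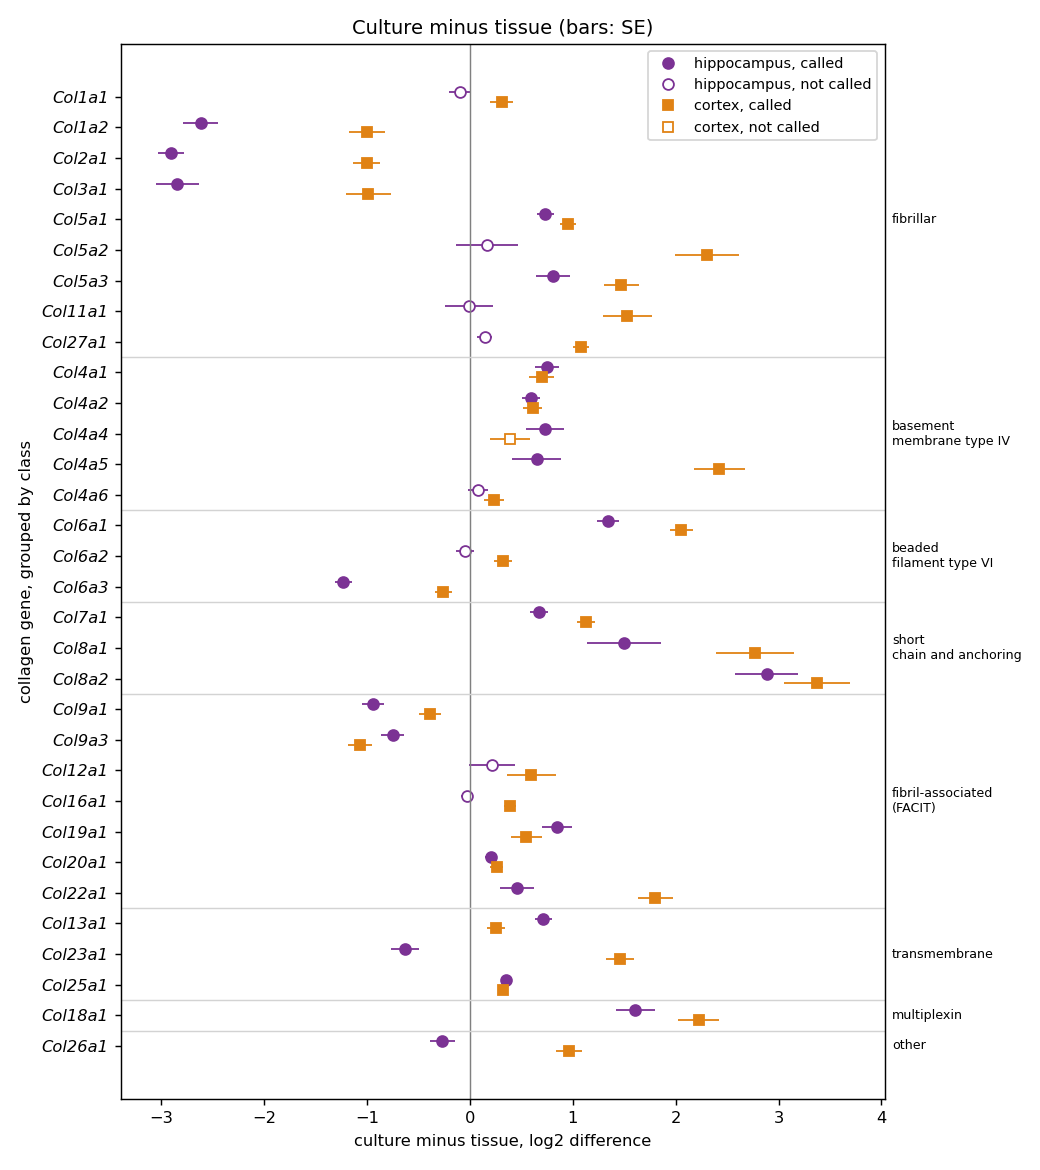
Culture minus tissue log2 difference ± SE of the 32 members above background, by class, in hippocampus (purple circles) and cortex (orange squares), with filled symbols for an adjusted p under 0.05. Col8a1, Col8a2, Col18a1 and Col6a1 lie right of 0 in both regions, and Col1a2, Col2a1 and Col3a1 lie left of 0, farther in hippocampus.

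Cell type markers and partner genes were counted in the same way, at an adjusted p under 0.05 (limma). The shares of all genes called were 72.1% in hippocampus and 71.2% in cortex. Of 15 endothelial markers 12 were lower in culture in each region, with summed signals of 976 to 2448 in hippocampal cultures against 2698 to 3417 in hippocampi and of 1018 to 2757 in cortical cultures against 2146 to 2418 in cortices. Of 10 astrocyte markers, 6 were higher and 2 lower in hippocampal culture and 9 were higher in cortical culture. Of 18 meningeal and fibroblast markers, 5 were higher and 12 lower in hippocampal culture, and 7 higher and 5 lower in cortical culture. Of 12 pericyte and smooth muscle markers, 4 were higher and 7 lower in hippocampal culture, and 5 higher and 5 lower in cortical culture. Of 12 neuronal markers, 11 were higher in hippocampal culture (median 1.96) and 10 in cortical culture (median 1.21), and 1 was lower in each. Of 9 dividing progenitor markers, 9 were lower in hippocampal culture (median -2.92), and 6 were lower and 2 higher in cortical culture (median -1.39). Of 12 microglial markers 11 were lower in each culture (median -2.11 in hippocampus and -1.35 in cortex). Their part in the collagen differences was not tested. Of 22 folding and secretion genes, 13 were higher and 4 lower in hippocampal culture and 16 higher and 2 lower in cortical culture. Of 14 propeptide and crosslinking genes, 8 were higher and 1 lower in hippocampal culture and 9 higher and 3 lower in cortical culture, and of 18 other basement membrane genes 6 were higher and 10 lower in hippocampal culture and 8 higher and 7 lower in cortical culture.

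The change with culture differed between the regions for 20 members, 19 of them with a more negative value in hippocampus, against 32.0% of all genes. By at least 2-fold it differed for 9, all more negative in hippocampus, against 5.07%. Of these, Col5a2 (-2.13 ± 0.43), Col4a5 (-1.78 ± 0.34), Col11a1 (-1.54), Col22a1 (-1.34) and Col26a1 (-1.23) were above background in all 4 systems. Col2a1 (-1.90), Col3a1 (-1.86) and Col1a2 (-1.62) were at background in both cultures and low in cortex, so that their fall in cortex had a floor and the sizes are not known. Col23a1 (-2.09), a transmembrane collagen, was at background in hippocampal culture and primary cortex. The exception in direction was Col13a1, a transmembrane collagen of cell adhesions (0.46), which was above background in hippocampal culture only.

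In tissue, hippocampus exceeded cortex in 23 of the 24 members that differed, against 36.4% of all genes called and 19.7% called higher. It did so in all 8 that differed at least 2-fold, against 3.89% of all genes and 2.53% higher. The median over the members was 0.28, against -0.01 over all genes. Col2a1 had its lowest, median and highest values at 7.25, 7.93 and 8.59 in hippocampi, against 4.84, 5.58 and 6.10 in cortices, a difference of 2.34 ± 0.13 (adjusted p = 1.1e-17, limma). Col4a5 had 8.02, 8.36 and 8.85 against 6.03, 6.27 and 6.71, a difference of 2.11 ± 0.24 (adjusted p = 2.9e-09, limma), and Col1a2, Col3a1, Col5a2 and Col12a1 were higher by 1.89 ± 0.17, 1.83 ± 0.21, 1.75 ± 0.30 and 1.29 ± 0.23. These 6 were named for having the largest differences, and none of them overlapped between the regions in tissue. Overlap was not counted over all genes. Only the fibril-associated Col22a1 was lower in hippocampus (-0.48, lost without litter 4236 at -0.44).

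Several marker lists also stood higher in hippocampus: 11 of 18 meningeal and fibroblast, 8 of 10 choroid plexus, 10 of 12 microglial and 7 of 10 astrocyte markers, with 6 of 15 endothelial markers higher and 1 lower. Over all genes 36.4% were called and 19.7% were called higher. Dividing progenitor markers were higher for 6 of 9, pericyte and smooth muscle markers were higher for 2 and lower for 2 of 12, and neuronal markers were lower for 8 of 12 and higher for none. The meningeal and fibroblast sum ran between 4160 and 5875 in hippocampi against 2064 to 2668 in cortices, and the part of these cells in the regional differences was not tested. Among collagen partners, 15 of 22 folding genes were higher and 2 lower in hippocampus, and 9 of 18 other basement membrane genes were higher and 0 lower after adjustment in limma.

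**Figure D4:**
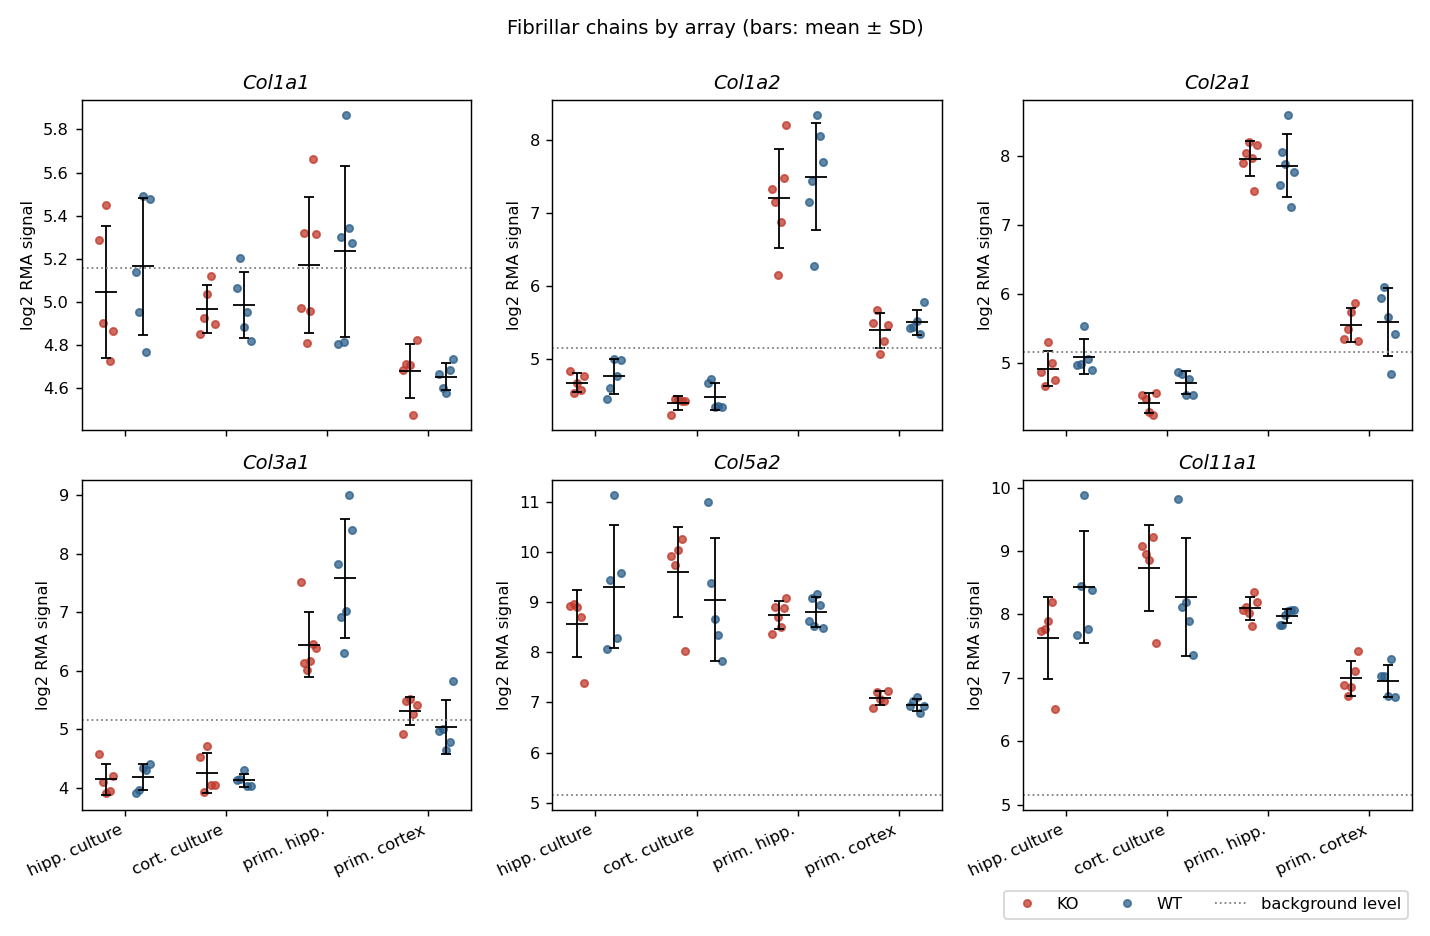
Log2 signal of 6 fibrillar chains on each of the 42 arrays, KO (red) left of WT (blue) in each system, with the mean ± SD and the background level of 5.16 log2 as a dotted line. Col1a2, Col2a1 and Col3a1 are highest in primary hippocampus and around or under the dotted line in both cultures, with 2 hippocampal cultures of Col2a1 above it, whereas Col5a2 and Col11a1 are well above it in culture.

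Between the cultures the members were split. Of 17 members that differed, 8 were higher and 9 lower in hippocampal than in cortical culture, against 28.2% of all genes, and the 3 that differed at least 2-fold were all lower, against 2.48%. Col22a1 had its lowest, median and highest values at 5.37, 6.03 and 6.84 in hippocampal cultures, against 7.45, 7.92 and 8.52 in cortical ones, with no overlap (-1.82 ± 0.17, adjusted p = 6.6e-11, limma). Col23a1 had 4.86, 5.04 and 5.39 against 5.60, 6.60 and 7.12, also without overlap and at least 1.38 lower, since its hippocampal mean was at background. Overlap was not counted over all genes for these members either. Col8a1 was lower by -1.20 ± 0.38, lost without litter 2236 (-0.81) or 2620 (-0.98), with the litter as a fixed block and on the culture arrays alone.

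Smaller differences in the same direction were found for Col5a3 (-0.73), Col27a1 (-0.47) and Col26a1 (-0.45). Higher in hippocampal culture were Col12a1 (0.91), Col19a1 (0.85), Col13a1 (at least 0.20), Col4a6 (0.55), Col9a3 (0.51) and Col4a1 (0.44), the last not past the test with the litter as a fixed block. For Col12a1, the mean of all its probe sets gave 0.46 in culture and 0.58 in tissue.

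Chains that assemble together were finally compared array by array within a system, as deviations from the mean of their genotype, in 18 relations of which 8 passed an adjusted p of 0.05 by Pearson's r and 6 by Spearman's rho (permutation tests of 100000 resamples, two-sided). Col4a1 and Col4a2 varied together over 10 hippocampal cultures (r = 0.94, p = 0.00019, adjusted p = 0.0017; rho = 0.94, p = 0.00018, permutation). Without the 2 arrays farthest from the median, r was 0.88. In primary hippocampus r was 0.82 (p = 0.0013, adjusted p = 0.0049; rho = 0.69, p = 0.015) and 0.63 without 2 arrays, and in primary cortex 0.87 (p = 0.0014, adjusted p = 0.0049; rho = 0.77, p = 0.012) and 0.72. In cortical culture it was 0.46 (p = 0.19, adjusted p = 0.265; rho = 0.30, p = 0.39), and 0.80 without 2 arrays.

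Col4a5 and Col4a6 varied together over 10 hippocampal cultures (r = 0.87, p = 0.00076, adjusted p = 0.0046; rho = 0.88, p = 0.0017, permutation) and 12 hippocampi (r = 0.91, p = 5e-05, adjusted p = 0.0009; rho = 0.91, p = 0.00011, permutation), with r of 0.79 and 0.86 without 2 arrays. In cortical culture r was 0.65 (p = 0.040, adjusted p = 0.080; rho = 0.73, p = 0.020) and 0.56 without 2 arrays. The type I chains Col1a1 and Col1a2 did so over 12 hippocampi (r = 0.77, p = 0.0033, adjusted p = 0.0098, and rho = 0.82, p = 0.0019, permutation), and r was 0.75 without 2 arrays. Col1a1 averaged 5.17 in KO and 5.23 in WT hippocampi, close to the background level of 5.16, with single arrays under it. This relation therefore rests partly on values at the floor. For Col8a1 and Col8a2 in cortical culture (r = 0.72, p = 0.020, adjusted p = 0.045; rho = 0.64, p = 0.054) and Col5a1 and Col5a2 in primary cortex (r = 0.76, p = 0.010, adjusted p = 0.026; rho = 0.41, p = 0.25), r was 0.26 and 0.25 without 2 arrays, so these relations rested on those arrays. Col6a1 and Col6a2 gave no relation past the test in either culture (r = 0.19, p = 0.59, adjusted p = 0.713; rho = 0.09, p = 0.81 in hippocampal culture, and r = 0.10, p = 0.77, adjusted p = 0.872; rho = 0.14, p = 0.71 in cortical culture). The remaining relations did not pass either. For Col5a1 and Col5a2, r was 0.59 in hippocampal culture, 0.07 in cortical culture and -0.47 in primary hippocampus. For Col6a1 and Col6a3 it was -0.012 in hippocampal culture and -0.37 in cortical culture, where it was -0.81 without 2 arrays. For Col8a1 and Col8a2 it was 0.625 in hippocampal culture. The arrays of a relation share their processing, and Col4a1 and Col4a2 share a start region. Pairs of chains that do not assemble together were not tested, and single cultures stood apart in many chains at once. The relations are therefore not shown to be particular to partner chains.

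**Figure D5:**
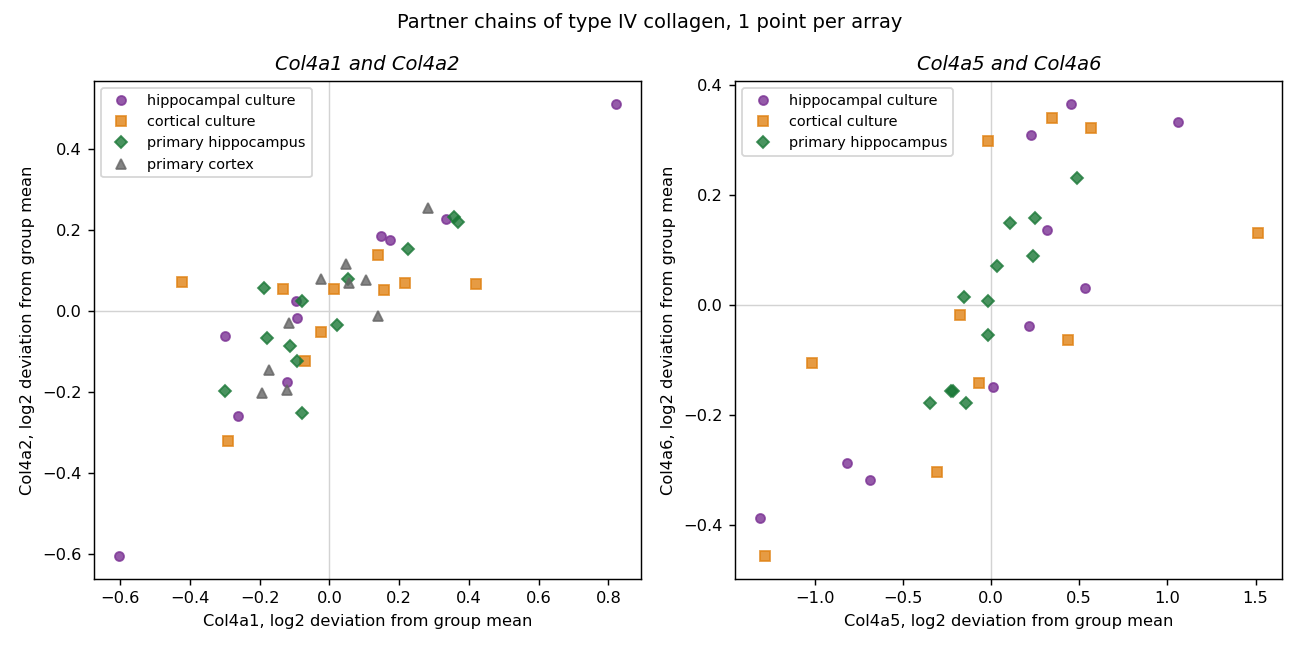
Deviations from the genotype mean, in log2, of Col4a2 against Col4a1 in the 4 systems and of Col4a6 against Col4a5 in 3, with 1 point per array. The points of Col4a1 and Col4a2 in hippocampal culture follow a line (r = 0.94), and those in cortical culture scatter (r = 0.46).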

How the data were processed

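Total RNA of pooled littermates was hybridised to Affymetrix mouse arrays, 1 per sample. The authors normalized all arrays together by the robust multi-array average (RMA) method, and the deposited values are log2 signals of 45101 probe sets. RMA forces the arrays onto 1 distribution, so that values are relative and changes of total RNA do not show. Removal of 64 control probe sets left 45037, of which 34945 name 1 gene, 932 several and 9160 none in the platform annotation. The background level of 5.16 log2 is the 95th percentile of 123 probe sets of olfactory, vomeronasal and hair keratin-associated genes.

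A limma 3.58.1 fit (R 4.3.3) over all 42 arrays held 8 group means, with Benjamini-Hochberg adjustment over all probe sets. As in the methods, KO against WT was called at an unadjusted p under 0.05, and so were the differences between KO effects; other comparisons were called at an adjusted p under 0.05. Percentages of all genes count 18193 genes. Tables and permutation tests used Python 3.11.15, NumPy 2.4.6, SciPy 1.17.1 and figures Matplotlib 3.10.9. The fit was tested on simulated data. Exact two-sided permutation tests of single members, 5 against 5 or 6 against 6 arrays, were added after the calls were seen.

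Named were all members called between genotypes that were above background in the higher group, the 6 higher and 6 lower members with the largest difference elsewhere, and the partner chains of their type. In the lists of partner and marker genes, up to 3 genes above background with the smallest p were named. Members and lists were chosen with earlier results of these data known. Levels of different probe sets were not compared. For differences between 2 systems against a group at background, the text gives a bound, the mean of the other group minus the background level. A difference of effects with a group at background has no bound, and its fitted value has no known size.

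The methods describe WT and KO replicates processed in pairs on the same day, but the labels do not say which KO and WT litters form a pair. No paired analysis of KO against WT was made, and the fit is unpaired. Over all probe sets, tissues of a litter deviated together (mean correlation 0.43), as did the cultures (0.29, but -0.14 for litter 2236), and culture and tissue did not (0.03 to 0.07). The identifiers do not say whether arrays are separate dissections, so p-values measure the spread between arrays. For limma this is a residual variance per probe set pooled over all 8 groups, not the spread of the groups compared. Col3a1 had an SD of 1.01 in WT hippocampi and 0.23 in WT hippocampal cultures. Col4a5 had one of 0.93 in WT cortical cultures and 0.20 in WT cortices. For such uneven groups the pooled SE is smaller than their own spread would give. The exact permutation tests use only the arrays compared. The number of arrays limits the precision. The closing section gives the alternatives.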

Additional observations from a re-analysis of the deposited data

Results flagged for a closer look

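Of 26 groups of named members tested for a sample far from the others, 3 held one, where chance gives about 1 in 20 groups. KO litter 4236 lay far under the other hippocampal cultures of its group in Col11a1 (6.51 log2) and Col18a1 (7.35), and KO litter 2037 far above the other KO hippocampi in Col3a1 (7.52).

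The KO effect differed between systems, by limma's test of the difference itself at an unadjusted p under 0.05, for 16 values of members above background in at least 1 group. Between hippocampal and cortical culture these were Col4a1 (-0.81), Col4a2 (-0.65), Col4a4 (-0.98), Col4a5 (-1.41), Col4a6 (-0.61), Col18a1 (-1.10), Col11a1 (-1.26), Col5a2 (-1.29) and Col8a2 (-1.43). Between hippocampal culture and primary hippocampus they were Col4a1 (-0.54), Col4a2 (-0.57) and Col3a1 (1.10), and between cortical culture and primary cortex Col4a6 (0.41) and Col20a1 (-0.30). Between primary hippocampus and primary cortex they were Col3a1 (-1.40) and Col6a2 (-0.39). Groups at background enter those of Col4a4 and Col4a6, and of Col3a1, whose sizes are therefore not known. No difference passed after adjustment over all genes.

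The culture minus tissue difference was more negative in hippocampus than in cortex for 18 members above background in at least 1 system and more positive for Col13a1 (0.46), after adjustment. Among fibrillar chains the values were Col5a2 (-2.13), Col2a1 (-1.90), Col3a1 (-1.86), Col1a2 (-1.62), Col11a1 (-1.54), Col27a1 (-0.94), Col5a3 (-0.66) and Col1a1 (-0.41). Among the others they were Col4a5 (-1.78), Col23a1 (-2.09), Col22a1 (-1.34), Col26a1 (-1.23), Col6a3 (-0.97), Col6a1 (-0.71), Col9a1 (-0.55), Col7a1 (-0.45), Col16a1 (-0.42) and Col6a2 (-0.37). Of these, Col1a2, Col2a1 and Col3a1 were at background in both cultures, Col5a3 and Col6a1 in both tissues, Col23a1 in hippocampal culture and primary cortex, and Col1a1 and Col13a1 in 3 of the 4 systems, so that the sizes of their differences are not known.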

How the results depend on the processing

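No value changed sign under any alternative run. Of 29 KO values of named members, 12 lost their call on the arrays of the groups compared alone, 8 with the mean of all probe sets of a gene, 2 after centring each array on its median, 1 with only probe sets above background, 0 with the litter as a random block and 5 without litters 2236, 2644 and 4236 together (chosen after seeing the data). Leaving out each litter in turn ended 66 of 348 such calls, in 18 of the 29. With the litter as a fixed replicate block (also chosen after seeing the data), 3 of 16 differences between KO effects were lost. Of 108 culture and region values, 6 were lost with the litter as a fixed block, 0 as a random block, 5 after centring, 2 with the mean of probe sets, 2 on the arrays compared alone, 0 with only probe sets above background, 6 without the 3 litters, and 53 of 1296 without 1 litter. Values with a group at background carry no exact size.

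Counts of called members moved as follows. KO against WT gave 7 members in hippocampal culture, 3 on its own arrays and 4 without the 3 litters, and 3 (without 4236) to 13 (without 2236) without 1 litter, with 4 without 2644. In cortical culture 7 became 4 with the mean of probe sets and 17 without the 3 litters, and 2 (without 2037) to 14 (without 2236 or 4236) without 1 litter. In primary hippocampus 2 became 4 on its own arrays and 6 without the 3 litters, and 2 to 5 without 1 litter (5 without 2037, 2236 or 4237). In primary cortex 0 became 1 without the 3 litters, and 0 to 1 without 1 litter (1 without 2236). After adjustment these counts were 0 in hippocampal culture, cortical culture and primary hippocampus. The KO effect differed between the cultures for 11 members, for 6 on the culture arrays alone and 17 without the 3 litters, and for 5 (without 2644) to 16 without 1 litter. Between hippocampal culture and primary hippocampus 3 became 2 to 8 without 1 litter (8 without 2236). Between cortical culture and primary cortex 4 became 2 after centring, 2 with only probe sets above background, 2 with the mean of probe sets and 11 without the 3 litters, and 1 to 6 without 1 litter (1 without 2038 or 2620). Between the tissues 2 became 1 with the mean of probe sets and 1 to 3 without 1 litter. With a 2-fold minimum, culture against tissue gave 8 members in place of 30 in hippocampus and 15 in place of 37 in cortex, hippocampus against cortex 8 in place of 24 in tissue and 3 in place of 17 in culture, and the difference of culture effects 9 in place of 20. The litter as a fixed replicate block gave 13 in place of 17 in culture. The cause was not tested. Without the 2 arrays farthest from the median, r was 0.26 for Col8a1 and Col8a2 in cortical culture and 0.25 for Col5a1 and Col5a2 in primary cortex.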
